A study of Mus musculus with 6 samples.

Results

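The 10 genes described here, Fos, Fosb, Jun, Junb, Egr1, Egr2, Arc, Ier2, Npas4 and Dusp1, are immediate early genes. They were chosen by name from a table of 19613 genes measured on Affymetrix mouse exon arrays, and all 10 were in the table. The study exposed embryoid bodies with spinal motor neurons to blood fluid from mice, to read disease from the expression response of these indicator cells. The 6 arrays form 1 group, replicates 2, 4, 5, 6, 7 and 8, and no control arrays were analysed here, so the values are levels and their spread and not a response to the fluid. The embryoid bodies were grown from mouse HBG3 embryonic stem cells, in which motor neurons light up green through eGFP under the control of Hb9 (Mnx1). Per the study's methods they were induced with retinoic acid and a Hedgehog agonist, were plated on day 6 of differentiation, and in this assay were exposed for 24 h to 5% serum. The fluid came from male mice of the Huntington's disease strain B6CBA-Tg(HDexon1)62Gpb/3J, carriers of a fragment of the human huntingtin gene, at 10 weeks of age and before symptoms. The labels name it plasma where the series title and the methods name it serum. The stem cells are a single line, and per the methods only a minority of cells in such embryoid bodies showed the reporter. The study speaks of serum samples from this strain, but the sources used here do not say whether each array had its own mouse or culture, so the SDs and p-values below measure the spread between these arrays, which may be technical.

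Immediate early genes are transcribed within minutes of a stimulus, from factors already present in the cell, and need no new protein. Growth factors and serum act partly through kinases of the MAPK cascade on ELK factors, partners of SRF, and calcium and cAMP act on CREB. Most of the transcripts are short-lived, so a wave of induction usually fades within hours. Fos and Jun family proteins pair to form the transcription factor AP-1. Egr1 and Egr2 are zinc-finger transcription factors, Npas4 and Arc are best known from active neurons, and Dusp1 is a phosphatase that switches the MAPK cascade off again.

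The stretches of DNA before the start sites of 5 members are shown because elements through which such stimuli act can lie there. Another reason is that Fosb with Egr2 and Jun with Dusp1 had the highest correlations over the arrays among members above background. The stretches were taken from RefSeq for the assembly GRCm38.p6, and 7 of the 10 members were counted. Arc and Ier2 had no match in the promoter table used here. Egr1 was left out and its promoter is not reported here, so the counts below do not cover it. Each stretch shown is the 250 bases before the annotated start, 5′ to 3′ on the strand of the gene. Capitals mark the CRE core TGACG on either strand, the letters CREB reads, and the CArG box, the element SRF reads. Where TGACGTCA stands, 2 cores overlap. The regions are chr12:85473640-85473889 on the + strand for Fos, chr7:19310046-19310295 on the - strand for Fosb, chr10:67537619-67537868 on the + strand for the third of 5 starts listed for Egr2, chr4:95052223-95052472 on the - strand for Jun and chr17:26508473-26508722 on the - strand for Dusp1.
Fos: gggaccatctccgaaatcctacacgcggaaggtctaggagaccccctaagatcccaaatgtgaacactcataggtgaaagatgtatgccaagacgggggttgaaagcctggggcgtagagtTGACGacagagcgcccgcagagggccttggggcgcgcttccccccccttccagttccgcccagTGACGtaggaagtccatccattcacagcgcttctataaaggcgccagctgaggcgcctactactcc
Fosb: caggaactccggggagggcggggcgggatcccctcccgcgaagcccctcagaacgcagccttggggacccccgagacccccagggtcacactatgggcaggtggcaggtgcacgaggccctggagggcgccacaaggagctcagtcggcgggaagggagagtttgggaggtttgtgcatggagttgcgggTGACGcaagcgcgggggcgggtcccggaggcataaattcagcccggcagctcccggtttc
Egr2: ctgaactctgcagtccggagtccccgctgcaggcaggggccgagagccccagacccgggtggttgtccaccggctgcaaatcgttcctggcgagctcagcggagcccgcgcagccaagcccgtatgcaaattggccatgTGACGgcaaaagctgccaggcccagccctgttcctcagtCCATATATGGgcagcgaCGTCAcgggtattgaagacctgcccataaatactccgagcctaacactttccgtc
Jun: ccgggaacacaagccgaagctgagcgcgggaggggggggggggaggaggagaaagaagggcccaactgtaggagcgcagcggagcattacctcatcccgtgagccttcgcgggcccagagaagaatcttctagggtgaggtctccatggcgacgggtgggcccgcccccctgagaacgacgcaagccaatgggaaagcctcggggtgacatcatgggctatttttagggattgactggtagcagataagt
Dusp1: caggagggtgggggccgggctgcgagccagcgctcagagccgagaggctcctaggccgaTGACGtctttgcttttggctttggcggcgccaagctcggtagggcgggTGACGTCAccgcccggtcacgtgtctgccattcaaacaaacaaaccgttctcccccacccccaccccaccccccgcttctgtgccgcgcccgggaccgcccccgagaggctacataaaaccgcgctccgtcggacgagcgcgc
Of the 7 members counted, 6 held TGACG in these 250 bases, against 17.8% of all 32851 promoters. Jun was the member without it. A CArG box was found in 1 of the 7, Egr2, against 1.47% of all promoters, and Egr2 was counted by 1 of its 5 starts here. Of these 5 starts, 3 held TGACG, 4 a CArG box and 2 the GC box named next. The GC box GGGCGG, on either strand, was found in 5 of the 7, with none in Junb or in the Egr2 window shown, against 32.7% of all promoters. A match describes letters in this window and is not a measurement of binding. Elements farther from the start were not sought, so a window without a match does not show that a gene lacks the element.

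Some facts of all arrays bear on what follows. Median intensity per array ranged from 296 to 311, and Pearson's r between arrays over all genes ranged from 0.991 to 0.997. Replicate 8 stood apart, with the lowest average r, at 0.992, and with the lowest signal of the 1032 olfactory receptor (Olfr) genes, at a median log2 intensity of 5.44 where the other arrays had 5.49 to 5.61. Values without it are given beside some of the relations below, but it moved others more. For Arc with Dusp1 r was -0.23 over all arrays and 0.99 without replicate 8. For Arc with the Olfr median r was 0.66 over all arrays and -0.027 without it. All 11 motor neuron markers found were above the background defined below, led by Nefl at 12.95 ± 0.069 and Tubb3 at 12.81 ± 0.076 (mean log2 intensity ± SD, n = 6). Of 8 glial markers 6 were above it, with the radial glial gene Fabp7 at 13.90 and Gfap near it at 7.55. Aqp4 and Pdgfra were below it, at 7.45 and 6.39. Of 10 non-neural markers 5 were above background, where 65.2% of all genes were. A stricter level, also defined below, was passed by 3 of the glial and 3 of the non-neural markers. Of 7 blood and microglial markers 4 were above background, but 0 passed the stricter level. Cd68, Cd3e, Itgam and Csf1r lay above background, at 7.74 to 8.31, and those below it included Ptprc at 6.97 and Aif1 at 6.57.

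Background was set from the Olfr genes, which are seldom transcribed outside the nose. The level that 95% of their means did not exceed was a log2 intensity of 7.47, and the median of their means was 5.54. By this rule 65.2% of all genes were above background, and so were 8 of the 10 members, Fos and Npas4 being the exceptions. In bulk cultures, fewer cells that express a gene and less RNA per cell cannot be told apart. Probes differ in affinity from gene to gene, so the ranks below order intensities and not amounts of transcript. Jun, Egr1, Dusp1 and Arc were above background in all 6 arrays, where 61.6% of all genes were. The same 4 members passed a stricter level of 8.33, the 99th percentile of the Olfr means, which 48.6% of all genes passed. The other 4 of the 8, Fosb, Junb, Egr2 and Ier2, exceeded the first level by only 0.10 to 0.30 on the log2 scale on average and lay below it in 1 or 2 arrays each. Under median centring, quantile normalization and lowess correction of the arrays, the count of 8 was the same.

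**Figure D1:**
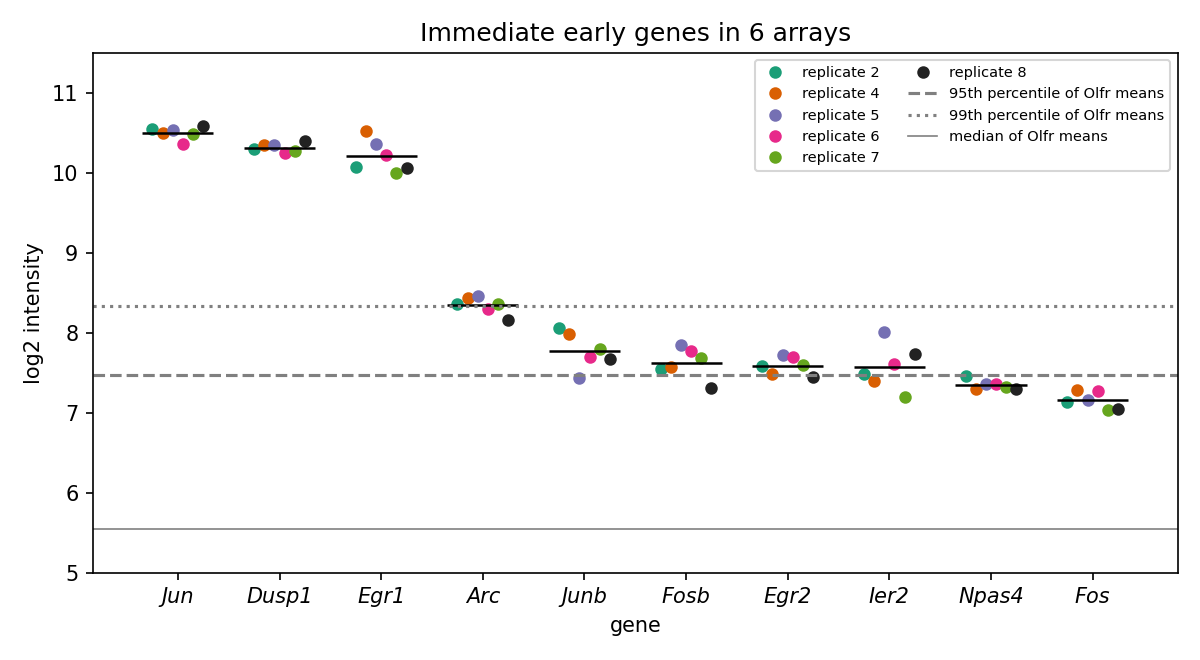
Log2 intensity (y axis) of each of the 10 genes (x axis) in the 6 arrays; points are arrays, black bars are means, and horizontal lines give the median, 95th and 99th percentile of Olfr gene means. Jun, Dusp1 and Egr1 lie at 10.005 or above in all arrays, while Fos and Npas4 lie below the 95th percentile of 7.47 in all 6.

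Of the AP-1 subunits, Jun had log2 intensities of 10.55, 10.50, 10.54, 10.37, 10.49 and 10.59 in replicates 2, 4, 5, 6, 7 and 8, with a mean of 10.50 ± 0.076 (SD, n = 6) that exceeded 90.5% of all genes. Replicate 6 was the low array, and the highest array exceeded it 1.16-fold. Junb, a Jun paralogue, had 8.06, 7.98, 7.43, 7.70, 7.79 and 7.67 in the same order, with a mean of 7.77 ± 0.23 (SD, n = 6). It was highest in replicates 2 and 4 and under background in replicate 5. Fos, the partner of Jun in the classical AP-1 dimer, had 7.14, 7.29, 7.16, 7.27, 7.04 and 7.05, a mean of 7.16 ± 0.11 (SD, n = 6). Its mean lay above those of 91.5% of the Olfr genes and its value was under background in all 6 arrays. Fosb had 7.55, 7.58, 7.85, 7.77, 7.69 and 7.31, a mean of 7.62 ± 0.19 (SD, n = 6), and only replicate 8 was under background.

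Egr1 had log2 intensities of 10.08, 10.53, 10.36, 10.23, 10.005 and 10.06 in replicates 2, 4, 5, 6, 7 and 8. Its mean of 10.21 ± 0.20 (SD, n = 6) exceeded 86.9% of all genes. Replicate 4 was highest and replicate 7 lowest, 1.43-fold apart, or 1474 against 1027 as intensities. Egr2, known also as Krox20 from hindbrain segments and Schwann cells, had 7.59, 7.48, 7.73, 7.70, 7.60 and 7.44, a mean of 7.59 ± 0.11 (SD, n = 6). It was highest in replicate 5 and under background in replicate 8 only. The 7 other markers of Schwann cells and hindbrain segments were above background, from Sox10 at 7.93 to Hoxb3 at 12.03, and their part in the level of Egr2 was not tested.

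Of the genes of active neurons, Arc, which acts at synapses on receptor traffic, had log2 intensities of 8.37, 8.44, 8.46, 8.30, 8.36 and 8.16 in replicates 2, 4, 5, 6, 7 and 8. Its mean was 8.35 ± 0.11 (SD, n = 6), above 51.8% of all genes, and replicate 8 was lowest. The transcription factor Npas4 had 7.46, 7.29, 7.36, 7.36, 7.33 and 7.29, a mean of 7.35 ± 0.061 (SD, n = 6). It lay under background in all 6 arrays, by 0.12 on average. Ier2, a nuclear protein, had 7.49, 7.40, 8.01, 7.61, 7.20 and 7.73, a mean of 7.57 ± 0.28 (SD, n = 6). It was highest in replicate 5 and under background in replicates 4 and 7, with a 1.75-fold range. The phosphatase Dusp1 had 10.29, 10.35, 10.34, 10.25, 10.28 and 10.40, a mean of 10.32 ± 0.055 (SD, n = 6) above 88.4% of all genes. Its arrays lay within 1.11-fold of each other, the narrowest range of the 10 members.

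The spread over arrays was then set against that of all genes. The median SD of the 8 members above background was 0.15 on the log2 scale, and that of all 12793 genes above background was 0.076. SD falls with level, and the 1907 genes within 0.5 above background had a median of 0.12. Egr1, Junb and Ier2, 3 of the 8, had an SD over 0.2, where 4.16% of all genes above background did. The count was 3 under quantile normalization and lowess correction, 2 under median centring, which Egr1 did not pass, and 2 to 4 with an array left out (2 without replicate 5, 4 without replicate 2). Without replicate 4 or replicate 7 the count was 3, but Fosb was over 0.2 and Egr1 was not. With the stricter background level, the median SD of the 4 members left was 0.091.

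Egr1 stood apart from genes of like level. Its SD of 0.20 was larger than that of 98.9% of the 1289 genes whose means lay within 0.25 of its own, and their median SD was 0.060. Without replicate 4, its highest array, the SD was 0.15 and still larger than in 95.04% of such genes, the lowest share under the alternatives tried. Ier2 exceeded 97.9% of 1876 genes of like level and Junb 95.1% of 1941. Both depended on replicate 5, in which Ier2 was highest and Junb lowest, and without it the shares were 86.7% and 81.8%. Fosb exceeded 85.5% of genes of like level, and 63.6% after lowess correction. Jun was at 72.7%, but at 18.6% without its low replicate 6. Arc was at 63.1% and at 36.4% without replicate 8. Dusp1 and Egr2 were close to the middle, at 41.9% each, with Egr2 at 15.9% after lowess correction. Of the 2 members under background, Fos was at 25.6% and Npas4 at 5.87%. These shares describe the arrays and carry no test. No member had an array that stood apart from the other 5 by Dixon's ratio, which 6.97% of genes above background had.

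**Figure D2:**
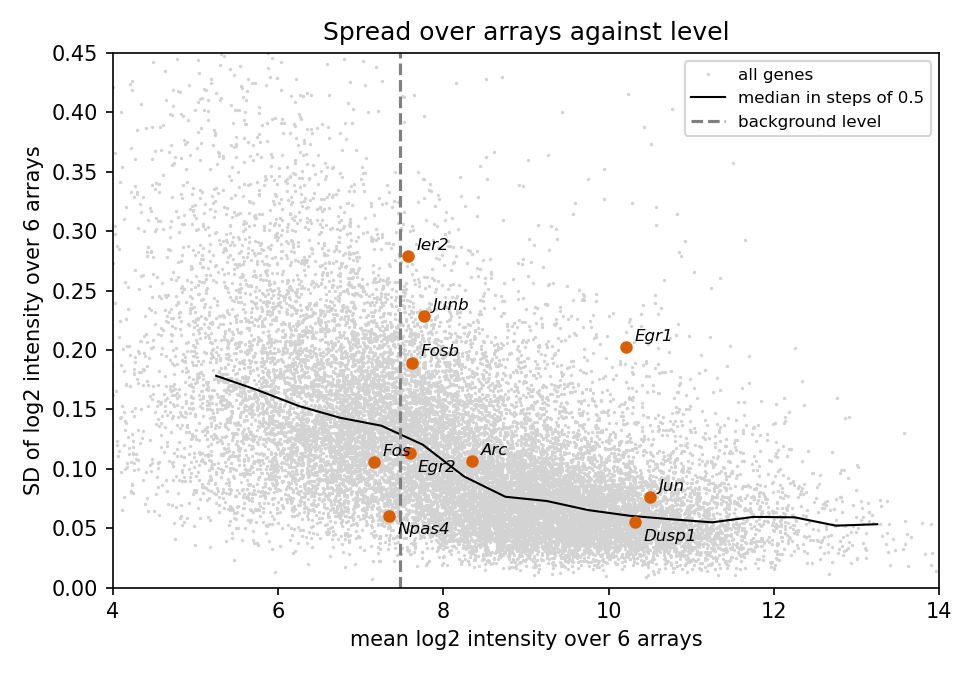
SD of log2 intensity over 6 arrays (y axis) against mean log2 intensity (x axis) for all genes (grey points) and the 10 members (orange, named); the black line is the median SD in steps of 0.5 and the dashed line the background level of 7.47. Egr1 lies well above the line at its level, Ier2 and Junb lie above it near background, Dusp1 and Npas4 lie below it, and 223 genes fall outside the axes.

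The next question was whether the members varied together. Over the 28 pairs of the 8 members above background, Pearson's r over the 6 arrays had a median of 0.036 and ranged from -0.74 to 0.92, and 14 pairs were positive and 14 negative. Over all 81824028 pairs of genes above background the median was -0.0005. A value of r of at least 0.8 was found in 1 of the 28 pairs, against 5.19% of all pairs, and a value of -0.8 or less in 0, against 4.63%. By two-sided exact permutation tests over the 720 pairings of arrays, 0 of 28 pairs passed an adjusted p of 0.05 (Benjamini-Hochberg over the 28 pairs), and 1 had an unadjusted p under 0.05. The smallest adjusted p that a pair alone can reach with 6 arrays is 0.0389 by r and 0.0778 by Spearman's rho. By rho 1 pair had an unadjusted p under 0.05, and no pair alone could have passed after adjustment.

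The pair with the lowest p was Fosb and Egr2. Their r was 0.92 with exact p = 0.00694 and adjusted p = 0.194, and rho was 0.94 with exact p = 0.0167 and adjusted p = 0.467. Both were highest in replicate 5, next in replicate 6 and lowest in replicate 8. Without replicates 5 and 8, the arrays farthest from the median of Fosb, r was 0.80, and with any 1 array left out it was 0.87 to 0.98. After lowess correction it was 0.60 and after quantile normalization 0.65, with adjusted exact p values of 0.797 and 0.863. Jun and Dusp1 had an r of 0.79 with exact p = 0.0556 and adjusted p = 0.778, and a rho of 0.77 with exact p = 0.103. Without replicates 6 and 8, the arrays farthest from the median of Jun, their r was 0.17. With any 1 array left out it was 0.65 to 0.91. Junb and Ier2 ran opposite to each other, with an r of -0.74, exact p = 0.0875 and adjusted p = 0.794, and rho was -0.77. Without replicates 2 and 5 their r was -0.58, and without replicate 5 alone it was -0.41. With the 2 members under background included, Fos and Egr1 had an r of 0.82 with exact p = 0.0597 and a rho of 0.94 with exact p = 0.0167, with adjusted p of 0.896 and 0.375 over 45 pairs. Without replicates 4 and 6 that r was 0.79. Fos lay under background throughout.

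**Figure D3:**
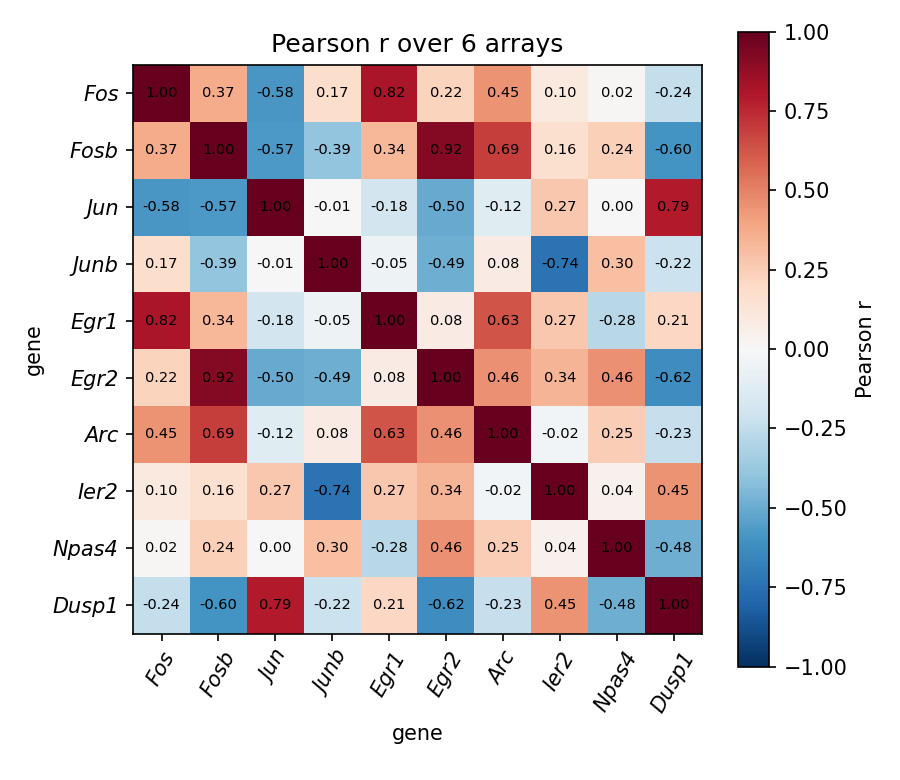
Pearson's r over the 6 arrays for each pair of the 10 genes (both axes), from -1 (blue) to 1 (red), with r printed in each cell. Fosb with Egr2 at 0.92 and Fos with Egr1 at 0.82 are the highest values, Junb with Ier2 at -0.74 is the lowest, and no block of positive values spans the list.

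Each of the 8 members above background was also related to 4 measures of the arrays, which were the median of the Olfr genes, the mean of the motor neuron genes Olig2, Mnx1, Isl1 and Lhx3, and the means of 10 genes of the integrated stress response and 7 genes of cholesterol synthesis. Of these 32 relations, 0 had r past an adjusted p of 0.05 in exact permutation tests and 4 had an unadjusted p under 0.05. The smallest adjusted p that 1 relation alone can reach is 0.0444 by r and 0.0889 by rho. By rho 4 relations had an unadjusted p under 0.05, and none alone could have passed after adjustment.

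Fosb followed the Olfr median, the background signal of each array, with an r of 0.91, exact p = 0.00694 and adjusted p = 0.111. Its rho was 0.83 with exact p = 0.0583. Without replicates 2 and 8 its r was 0.70 and without replicate 8 alone 0.75. Egr2 had an r of 0.69 with the same measure, exact p = 0.143 and adjusted p = 0.509, and an r of 0.40 without replicate 8. The other members near background, Junb and Ier2, had r of -0.24 and -0.15. The values depend on the scaling of the arrays, since r was 0.13 for Fosb and -0.52 for Egr2 after lowess correction, and -0.35 and -0.66 after quantile normalization. The 1872 genes within 0.5 above background, Olfr genes left out, had a median r of 0.62 with the Olfr median, with 29.2% at 0.8 or more and 26.6% negative. Genes with a mean over 10 had a median r of -0.22, and of the 3 members there Jun had -0.70, Dusp1 -0.61 and Egr1 0.40, with exact p values of 0.0875, 0.218 and 0.45. Without replicate 8 these r were -0.54, -0.12 and 0.20. The part of the background signal in the levels of Fosb and Egr2 was not tested beyond these values.

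Ier2 followed the mean of the 4 motor neuron genes, with the lowest p of the 32 relations. Its r was 0.96 with exact p = 0.00278 and adjusted p = 0.0889, and rho was 0.94 with exact p = 0.0167 and adjusted p = 0.267. Both were highest in replicate 5, next in replicate 8 and lowest in replicate 7. Without replicates 5 and 8 r was 0.85, with any 1 array left out it was 0.91 to 0.99, and under the 3 other scalings it was 0.93 in each. Among the 4 genes, r with Ier2 was 0.78 for Mnx1, 0.70 for Lhx3, 0.56 for Olig2 and -0.10 for Isl1. The 4 genes had a median r of 0.099 with each other, and their mean itself moved little, from 9.03 to 9.23. Junb ran against it, with an r of -0.85, exact p = 0.0347 and adjusted p = 0.3, and without replicates 5 and 8 its r was -0.44.

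Egr1 and Arc were the members closest to the integrated stress genes, many of them targets of the factor Atf4. The mean of these 10 genes was highest in replicate 4, at 11.23, as was Egr1, and lowest in replicate 8, at 10.945, as was Arc. For Arc r was 0.83 with exact p = 0.0375 and adjusted p = 0.3, and for Egr1 it was 0.80 with exact p = 0.0639 and adjusted p = 0.393. Spearman's rho was 0.89 for each, with exact p = 0.0333 and adjusted p = 0.267. Without replicates 7 and 8 r was 0.80 for Arc and 0.75 for Egr1, and without replicate 8 alone it was 0.58 and 0.83. Under the 3 other scalings r was 0.77 to 0.86 for Arc and 0.79 to 0.81 for Egr1. Of the 8 relations to the cholesterol genes 0 had an unadjusted p under 0.05, and Arc had the strongest, with an r of -0.77, exact p = 0.0736 and adjusted p = 0.393. Its r was -0.34 without replicate 8 and -0.28 without replicates 7 and 8.

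**Figure D4:**
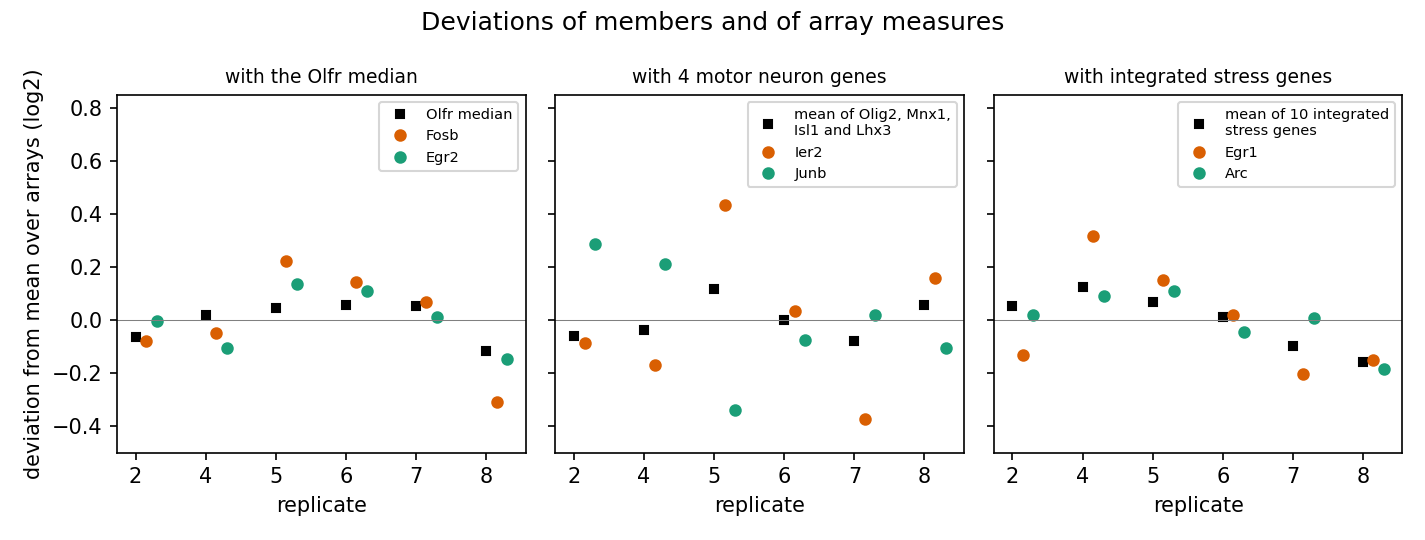
Deviation from the mean over arrays, on the log2 scale (y axis), in replicates 2 to 8 (x axis, in no order of meaning) for Fosb and Egr2 with the Olfr median, Ier2 and Junb with the mean of 4 motor neuron genes, and Egr1 and Arc with the mean of 10 integrated stress genes (black squares). Fosb and Egr2 are lowest in replicate 8, Ier2 is highest and Junb lowest in replicate 5, and Egr1 is highest in replicate 4.

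The genes whose pattern over the 6 arrays was most like that of each member were sought among 11901 named genes above background. For Egr1 they were Sox6, a transcription factor, with an r of 0.99, Rad9b with 0.99 and Snrnp70, a splicing protein, with 0.98. For Junb they were Adra2a, Ubxn7 and Pde5a, each with an r of 0.99 or more, and for Ier2 they included Fam185a with 0.99 and Maf with 0.98. For Fosb they were Nfkbil1, Relb and Cmtm5 and for Egr2 Sstr1, Kif19a and Ybx2, each with an r of 0.99 or more. Jun was most like Stx5a, Src and Phospho2, Arc most like Zbtb38, Ccdc117 and Wdr62, and Dusp1 most like Igdcc3, Cxcr7 and Crlf3. How many genes came this close differed between members. An r of at least 0.95 was reached by 321 genes for Fosb and 107 for Egr2, by 53 for Dusp1, 33 for Jun, 31 for Junb and 26 for Arc, and by 18 for Ier2 and 16 for Egr1. These values are a description over 6 arrays with no test. How many genes come this close to genes other than the members was not determined. Neither the counts nor the genes named can therefore be called particular to the members.

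Other genes of the pathway were described from fixed lists, with 65.2% of all genes above background for comparison. All 10 other AP-1 family genes found were above background. Atf2, a partner of Jun that is present without a stimulus, had a log2 intensity of 11.55 ± 0.060 and Mafk had 10.71 ± 0.11 (SD, n = 6). Batf, at 8.35 ± 0.19, and Atf3, a stress-induced member at 9.72 ± 0.18, had the largest SDs of the list (n = 6), and Atf3 was, like Egr1, highest in replicate 4. Of 21 further immediate early regulators 19 were above background. Id2 had 11.18 ± 0.083 and the antiproliferative gene Btg1 10.92 ± 0.043, and Id3 and Ier3 varied most, at 10.42 ± 0.24 and 8.72 ± 0.20 (SD, n = 6). Egr3 and Csrnp1 were the members of that list under background, at 6.67 and 7.25. Of 18 immediate early effectors 16 were above it, with Rgs2, a brake on G protein signals, at 11.10 ± 0.11, Zfp36l1 at 10.97 ± 0.098, and, among those above background, the widest SDs in Gadd45a at 9.09 ± 0.21 and Plk2 at 9.96 ± 0.18 (n = 6). Gadd45a and Plk2 were also highest in replicate 4. Other genes with the largest SDs of these lists were highest elsewhere. Batf and Bdnf were highest in replicate 6, Nptx2 in replicate 5, Id3 in replicate 8 and Ier3 in replicate 2. The share of all genes highest in replicate 4 was not determined. Of 8 later activity-regulated genes 6 were above background, with the secreted proteins Nptx1 at 10.28 ± 0.12 and Scg2 at 9.85 ± 0.056. Bdnf, a neurotrophin induced by activity, lay near background at 7.86 ± 0.18, and so did Nptx2 at 7.50 ± 0.18 (SD, n = 6).

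Upstream of the members, all 19 kinases and Ras genes found were above background, with the ERK kinase Mapk3 at 11.38 ± 0.028 (SD, n = 6). Mapk8 and Map2k1 had the largest SDs, 0.15 and 0.093. The median SD of this list was 0.066, against 0.15 for the members and 0.076 for all genes above background. All 17 factors that act at the promoters were above background, with Ep300 at 11.33 ± 0.051 and Crebbp, the coactivator named for CREB, at 11.20 ± 0.019, and with Crem and Mef2c close to background at 7.50 ± 0.088 and 7.49 ± 0.13 (SD, n = 6). Their median SD was 0.061. Of 14 genes on a list of feedback regulators, 13 were above background. Dusp8 had 10.97 ± 0.057 and Dusp4 10.53 ± 0.079, and among those above background Spry2 and Spry1 had the largest SDs, at 7.96 ± 0.12 and 8.21 ± 0.11 (SD, n = 6). Of 16 receptor kinases 12 were above background, led by Igf1r at 11.56 ± 0.048 and Fgfr3 at 10.80 ± 0.049 (SD, n = 6). Met and Ntrk2, a receptor of Bdnf, had the largest SDs, at 7.87 ± 0.15 and 9.48 ± 0.14 (SD, n = 6), and Pdgfra was lowest, at 6.39. The stricter level was passed by 18 of the kinases and Ras genes, 14 of the promoter factors, 10 feedback genes and 10 receptor kinases. These lists differ from the members in level, and SD falls with level, so the differences in SD between lists were not tested.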

How the data were processed

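Expression was measured on 6 Affymetrix MoEx-1_0-st-v1 exon arrays of 1 group. The authors deposited 1 linear intensity for each gene in each array. Per the study's methods, the authors made them by Robust Multi-array Averaging in Aroma Affymetrix, averaging the exons of each gene in the array annotation, and the submitters' processing notes also name Affymetrix Expression Console. Signal shared between paralogues is not separated by any step named, and a mean over exons does not tell isoforms apart. Which arrays were normalized together, and the genome build of the files, are not given in the sources used here. The study later turned intensities into log ratios against a model on Olig2, Mnx1, Isl1 and Lhx3, and the values used here are not ratios. Outlying arrays were removed in the study, and whether these 6 had been screened is not stated. The table held 0 columns from other samples.

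Names altered in the table were restored (1220 names). Intensities were taken to log2 with no pseudocount. Background was the 95th percentile of the mean log2 intensities of 1032 Olfr genes. Errors are SDs over arrays. Precision is limited by the number of arrays. Genes of like level were those within 0.25 log2 of a mean. Pearson's r and Spearman's rho were tested with two-sided exact permutation tests over 720 pairings, with Benjamini-Hochberg adjustment over each family. The genes named were all 10 members, for each member above background the 3 genes with the highest r (Olfr, Gm and Rik names left out), and of each pathway list the highest 2 genes and the 2 with the largest SD, besides motor neuron genes. Some genes that this rule picks are not reported here. Markers and pathway genes below background are named where they define a cell type or were the exceptions of a list, after their values were seen. Members and lists were chosen with earlier results of these data known. List genes without a match in the table were left out (Jdp2, Rps6ka2, Slc18a3, Hmgcs1, Hbb-bt and Hba-a1). Promoters came from RefSeq on GRCm38.p6, matched by symbol. Alternatives were median centring, quantile normalization, lowess correction (fraction 0.3), a 99th percentile background, no filter, rho, a linear scale and leaving out each array. Python 3.11.15, NumPy 2.4.6, SciPy 1.17.1, pandas 2.3.3 and statsmodels 0.14.6 were used, and the functions were tested on simulated data.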

Additional observations from a re-analysis of the deposited data

How the results depend on the processing

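The count of members above background was 8 under each scaling and with any 1 array left out, and 4 with background at the 99th percentile of Olfr genes or when a gene had to pass in every array. The median SD of the members above background, 0.15, was 0.13 under median centring, 0.10 under quantile normalization, 0.11 after lowess correction, 0.091 with the 99th percentile background and 0.11 with no filter, and 0.11 to 0.16 with an array left out, lowest without replicate 8. The median pairwise r, 0.036, was 0.081 with no filter and 0.086 by Spearman's rho, and ran from -0.042 without replicate 5 to 0.066 without replicate 8. The counts of member pairs and of relations to array measures that passed an adjusted p of 0.05 were 0 under each alternative tried, but with an array left out a pair alone can reach no adjusted p below 0.233 and a relation none below 0.267, and these limits are 0.0778 and 0.0889 by rho and 0.0625 and 0.0556 with no filter, so those counts of 0 say nothing about stability. The 70 alternative values of the 10 member levels moved by less than 1 SD. Leaving out 1 array cannot move a mean that far, so only the values under quantile normalization could have done otherwise. The 30 alternative values of r for the 3 pairs named kept their sign. No paired analysis was possible because there is 1 group. Alternatives for the SD among genes of like level, for the count with an SD over 0.2 and for single relations were chosen after seeing the data. The number of arrays limits all correlations, and signal close to background limits Fos, Npas4, Fosb, Junb, Egr2 and Ier2.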
